A study of Homo sapiens with 12 samples.

Results

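HMOX1, TXNRD1 and GCLM, genes of the cell's defence against oxidants, rose 2.03- to 2.61-fold in HT1080 cells given PMA. In cells given ConA, HMOX1 did not pass the test, TXNRD1 fell slightly and GCLM rose 1.55-fold. The cystine transporter gene SLC7A11 was lower with both treatments. These genes belong to a group of 10 taken by name: HMOX1, NQO1, GCLC, GCLM, SLC7A11, TXNRD1, SRXN1, NFE2L2, KEAP1 and FTH1. They comprise heme oxygenase 1, targets of the transcription factor NRF2, and NRF2 (gene NFE2L2) with its repressor KEAP1. All 10 were found among the 16101 genes of the PMA table and the 15991 genes of the ConA table, which have 15459 genes in common, and all 10 passed the filter on low values.

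HT1080 is an established human fibrosarcoma cell line, listed as wild type. Polyadenylated RNA was sequenced from 12 libraries in 4 groups of 3. PMA (phorbol 12-myristate 13-acetate), a phorbol ester that activates protein kinase C, was given at 40 nM for 24 h, and ConA (concanavalin A), a plant lectin that binds cell-surface glycoproteins, at 40 µg/mL for 24 h. Each treatment had 3 untreated controls of its own, numbered 1 to 3 for PMA and 4 to 6 for ConA. All groups shared biotin-depleted medium, which was changed to 1% serum 3 days after seeding. Every library came from this 1 line, and the labels do not say whether the libraries of a group came from separate cultures, so the p-values measure the spread between these libraries, which may be technical. The 2 treatments were run with separate controls and normalized in separate tables, so treatment and experiment cannot be told apart when they are compared.

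As background, NRF2 is made continuously, and KEAP1 marks it for degradation by a CUL3 ubiquitin ligase. Oxidants and electrophiles modify cysteines of KEAP1, NRF2 then accumulates, pairs with a small MAF protein and binds antioxidant response elements in the promoters and enhancers of its targets. Those targets make glutathione (GCLC, GCLM, SLC7A11), regenerate thioredoxin and peroxiredoxins (TXNRD1, SRXN1), reduce quinones (NQO1), break down heme (HMOX1) and store iron (FTH1). BACH1 competes for such elements and represses HMOX1. Because NRF2 is controlled mostly through protein stability, its mRNA level is not a measure of its activity.

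The libraries held an estimated 33641981 to 45595027 reads on genes, and replicate libraries differed by 3.48 to 16.6 times the sampling variance. All 10 mesenchymal markers were listed in both tables, with summed levels of 591500 to 595600 normalized counts in the PMA controls and 577000 to 597900 with PMA, and of 688000 to 756700 in the ConA controls and 520500 to 573100 with ConA, the last without overlap. Of the 8 epithelial markers 2 were listed in the PMA table, with sums of 130.0 to 135.9 in controls and 65.85 to 81.26 with PMA, again without overlap. The ConA table listed 6 of the 8, with sums of 154.3 to 167.1 in controls and 166.2 to 216.3 with ConA, and GRHL2 and KRT5 were in neither table. Of the 12 leukocyte and erythroid markers, 7 were listed in the PMA table, where their sum was 789.9 to 826.3 in controls and 838.2 to 1214 with PMA. The ConA table listed 4 of them, with sums of 455.4 to 493.9 in controls and 394.5 to 461.6 with ConA, and CD14, CD79A, MS4A1, HBA1 and HBB were in neither table. Apart from the epithelial sums with PMA, where both listed markers fell, the sums combine members that went different ways. At an adjusted p of at most 0.05, 4 of the 10 mesenchymal markers rose and 5 fell with PMA, and as many with ConA. Of all genes 63.3% changed with PMA and 65.3% with ConA. Of the 4 epithelial markers tested with ConA, 1 rose and 1 fell. Of the leukocyte and erythroid markers, 1 of 6 tested rose and 0 fell with PMA, and 1 of 4 rose and 1 fell with ConA. The part of these marker levels in the results was not tested. In bulk RNA, fewer cells of a type and less RNA per cell cannot be told apart. The normalized totals also moved with treatment, and scaling all libraries of a table to equal totals gave a median log2 change of all genes of -0.118 for PMA, 0.064 for ConA and -0.198 for their difference, in place of 0.003, -0.002 and -0.010. Genes higher with PMA then made up 35.6% of all PMA calls instead of 51.8%, and genes with a more positive change under PMA 32.2% of the calls on the difference instead of 49.8%.

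Promoter sequences show where letters of the antioxidant response element stand near the start sites of these genes. RefSeq promoters on GRCh38.p14, from 250 bases before to 50 after each start, matched 7 of the 10 genes with 10 promoters. The core TGACNNNGC, sought on both strands, was found in 4 of the 10 promoters, which belong to GCLM, TXNRD1 and KEAP1, and in 13.3% of all 35116 promoters. Among the 17242 promoters of tested genes the share was 14.4%. The 4 windows below show 1 match from each of those 4 promoters, each read 5′ to 3′ in the direction of the core, with the matched 9 bases in capitals.
GCLM, chr1:93909446-93909474, plus strand: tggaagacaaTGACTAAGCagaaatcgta
TXNRD1, upstream start, chr12:104215670-104215698, plus strand: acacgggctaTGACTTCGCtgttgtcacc
TXNRD1, downstream start, chr12:104286920-104286948, minus strand: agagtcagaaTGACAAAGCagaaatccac
KEAP1, chr19:10502784-10502812, plus strand: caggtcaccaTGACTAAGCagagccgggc

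The match began 34 bases before the start of GCLM, 99 and 102 bases before the upstream and downstream starts of TXNRD1, and 31 bases before a start of KEAP1. The GCLM match and the printed KEAP1 match carried the same 9 letters, TGACTAAGC, and the other KEAP1 match, 54 bases before the start, did not. In GENCODE release 29 the KEAP1 window and the downstream TXNRD1 window lay wholly in UTRs of their genes, the GCLM window partly so (11 of 29 bases), and none of the 4 overlapped coding sequence. A further match was present at the upstream TXNRD1 start and another at the KEAP1 start. The AP-1 core TGACTCA, in 4.95% of all promoters, was in none of the 10, which says only that these letters are not in these windows. HMOX1, SLC7A11 and FTH1 had no entry. A match of letters is not evidence of binding.

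With PMA, 7 of the 10 genes rose and 2 fell at an adjusted p of at most 0.05 (limma on log2(normalized count + 1), Benjamini-Hochberg over 15153 genes). Of all genes tested, 63.3% changed by that rule, 32.8% upward and 30.5% downward. By the stricter rule, at least 2-fold with an adjusted p of at most 0.0001, 3 of the 10 rose and none fell, against 8.65% of all genes in either direction (4.03% higher, 4.61% lower). For 9 of the 10 the 2 groups were apart in every library, 7 upward and 2 downward, against 67.9% of all genes (34.8% and 33.1%). The median log2 fold change of the 10 was 0.56, beside 0.003 over all genes, and their median size without sign was 0.72 beside 0.30. With ConA, 4 rose and 3 fell at an adjusted p of at most 0.05, against 65.3% of all 15139 genes in either direction (32.8% higher, 32.5% lower), and 1 fell by the stricter rule, against 8.71% (5.83% higher, 2.88% lower). The groups did not overlap for 8 of the 10, 5 upward and 3 downward, against 69.3% of all genes (34.9% and 34.4%). There the median was 0.06 and the median size 0.37, beside 0.34 over all genes. The share of the 10 genes that changed at all with ConA was therefore close to that of all genes. All fold changes are on the log2(normalized count + 1) scale.

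**Figure D1:**
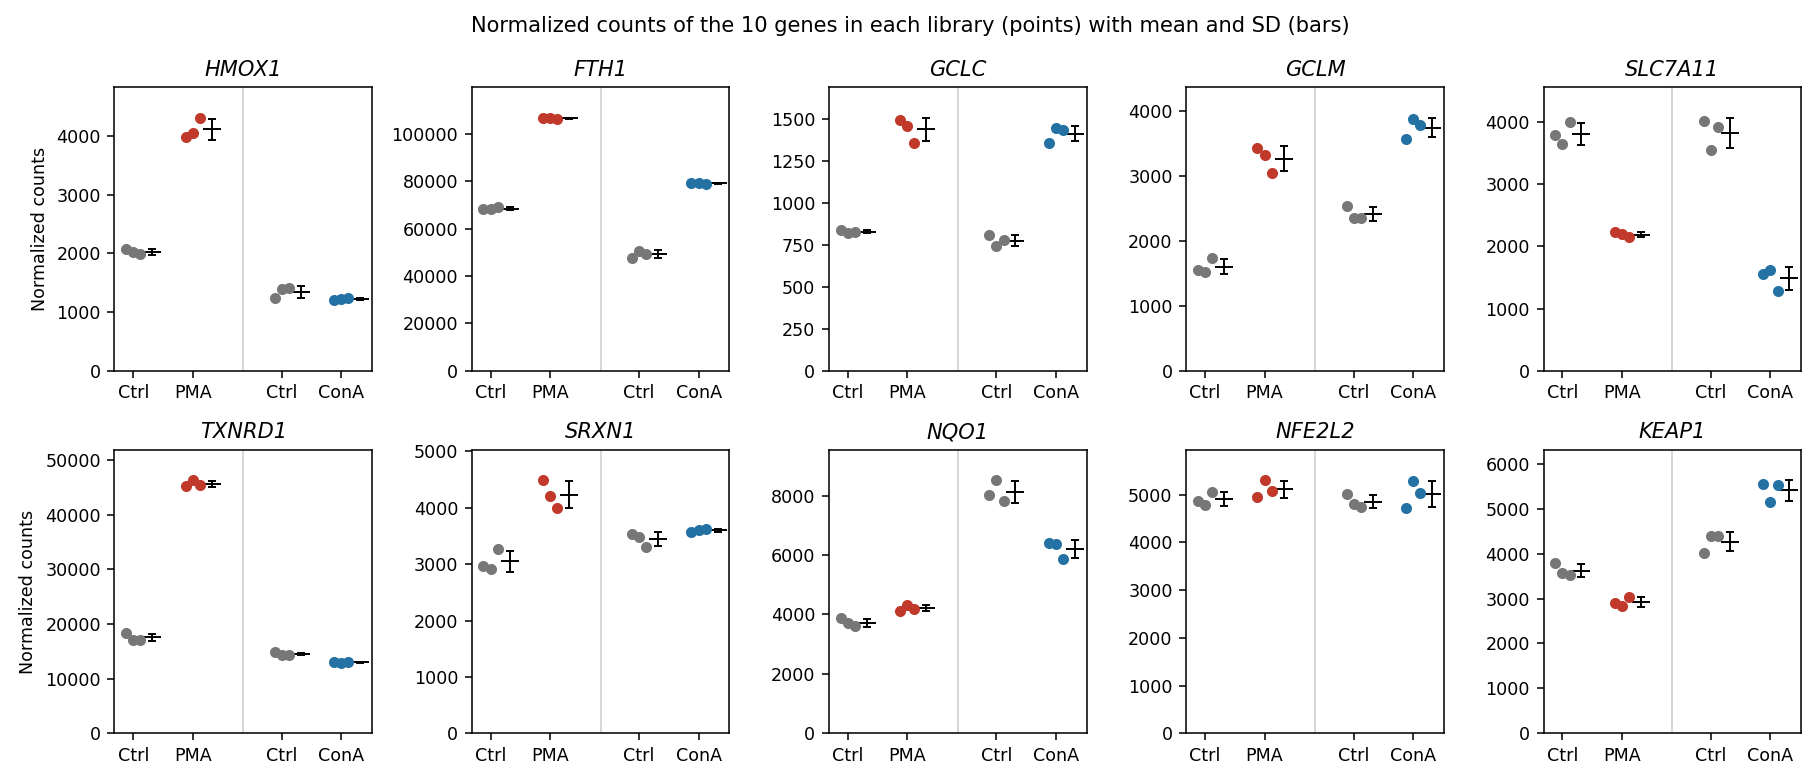
Normalized counts (vertical axes, each from 0) of the 10 genes in the 12 libraries, with controls in grey, PMA in red, ConA in blue, and the mean and SD of each group of 3 beside the points. The PMA libraries of HMOX1 and TXNRD1 stand above all other libraries of those genes, and NFE2L2 overlaps between treated and control libraries in both experiments.

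HMOX1 encodes the inducible heme oxygenase, which opens the heme ring to give biliverdin, carbon monoxide and free iron. Its level was 2075, 2015 and 1985 normalized counts in the PMA controls and 3978, 4046 and 4313 with PMA. Every treated library was above every control, and the gene rose 2.03-fold (log2 1.02, SE 0.044, limma adjusted p = 3.69e-09). In the ConA experiment the controls had 1232, 1385 and 1405 normalized counts and the treated libraries 1208, 1213 and 1244. Those groups overlapped, and the difference did not pass the test (log2 -0.13, 95% CI -0.27 to 0.01, limma adjusted p = 0.0932). The 2-fold call with PMA sat at its threshold: the log2 value was 0.91 under quantile normalization, 0.90 with equal totals and 0.99 without PMA replicate 3. The ConA value passed 0.05 without control replicate 4 (log2 -0.19, adjusted p = 0.022), under quantile normalization (-0.18, 0.0301), under median centring (-0.19, 0.0194) and in 1 fit of all 12 libraries (-0.13, 0.0423).

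HMOX2, the constitutive heme oxygenase, averaged 1758 normalized counts in the PMA controls and 2297 with PMA, a rise of 0.39 (log2, SE 0.053, limma adjusted p = 7.09e-05). With ConA it averaged 2547 in controls and 2308 in treated libraries, which did not pass the test (log2 -0.14, adjusted p = 0.0747). HMOX1 was thus the gene of the pair that reached 2-fold with PMA. BACH1, the repressor of HMOX1, rose with both treatments, from a mean of 3640 to 5370 with PMA (log2 0.56, adjusted p = 3.77e-07) and from 2609 to 3471 with ConA (log2 0.41, adjusted p = 1.17e-04).

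FTH1, the ferritin heavy chain that oxidizes and stores iron, rose by a similar amount with both treatments. The PMA controls had 68214, 68064 and 69066 normalized counts and the treated libraries 106715, 106677 and 106247 (log2 0.64, SE 0.040, limma adjusted p = 9.30e-08). The ConA controls had 47476, 50715 and 49444 and the treated libraries 79157, 79392 and 78956 (log2 0.69, SE 0.055, adjusted p = 8.81e-08). The treated libraries varied little, with a coefficient of variation of 0.244% for PMA and 0.275% for ConA, and all were above the controls. FTL, the ferritin light chain, did not follow: it averaged 75612 and 74450 normalized counts without and with PMA (log2 -0.02, adjusted p = 0.715) and fell with ConA from 67270 to 40067 (log2 -0.75, adjusted p = 2.88e-07). Both ferritin genes have many processed pseudogenes, and reads shared with those could be split between symbols, so their levels are uncertain.

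GCLC and GCLM encode the catalytic and modifier subunits of glutamate-cysteine ligase, the first and rate-limiting step of glutathione synthesis. Both rose with both treatments. GCLC had 838, 821 and 827 normalized counts in the PMA controls and 1496, 1458 and 1360.2 with PMA (1.73-fold, log2 0.79, SE 0.052, limma adjusted p = 1.33e-07). For ConA the GCLC controls had 807, 743 and 777 and the treated libraries 1359.8, 1447 and 1434 (1.82-fold, log2 0.86, SE 0.064, adjusted p = 3.91e-08). Treated and control libraries of GCLC did not overlap in either experiment.

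GCLM stood at 1553, 1519 and 1743 normalized counts in the PMA controls and 3434, 3319 and 3053 with PMA, a 2.04-fold rise (log2 1.03, SE 0.061, limma adjusted p = 6.14e-08). In the ConA experiment it went from 2531, 2354 and 2358 to 3578, 3872 and 3793, or 1.55-fold (log2 0.63, SE 0.056, adjusted p = 2.42e-07). The groups did not overlap in either experiment. The 2-fold call with PMA was again marginal, with a log2 value of 0.92 under quantile normalization, 0.91 with equal totals, and 0.99 without PMA replicate 1 or without control replicate 2. Without the variance trend its adjusted p was 0.00015.

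SLC7A11, the light chain of the cystine-glutamate antiporter that brings in cystine for glutathione, fell with both treatments. The PMA controls had 3799, 3639 and 3997 normalized counts and the treated libraries 2224, 2193 and 2147 (0.57-fold, log2 -0.80, SE 0.044, limma adjusted p = 3.30e-08). With ConA it dropped from 4011, 3545 and 3917 to 1560.1, 1626 and 1275 (0.39-fold, log2 -1.37, SE 0.083, adjusted p = 4.90e-09). The ConA change was the only one of the 10 that passed the stricter rule in that experiment, and without the variance trend its adjusted p was 0.00018. Its heavy chain partner SLC3A2 rose with PMA, from a mean of 15092 to 18974 (log2 0.33, adjusted p = 1.11e-05), and fell with ConA, from 13549 to 8491 (log2 -0.68, adjusted p = 1.95e-06). The antiporter's 2 chains therefore moved apart with PMA and downward together with ConA.

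TXNRD1, the cytosolic selenoenzyme that reduces thioredoxin with NADPH, had the largest change of the 10 with PMA. Its level was 18339, 17131 and 17107 normalized counts in the PMA controls and 45248, 46291 and 45439 with PMA (2.61-fold, log2 1.38, SE 0.041, limma adjusted p = 1.66e-10). All alternatives tried kept that rise past 2-fold. With ConA the level went from 14791, 14325 and 14359 to 13087, 12799.5 and 13019, a small fall (0.89-fold, log2 -0.16, SE 0.048, adjusted p = 0.00914) that was not past the threshold with equal totals (-0.09, adjusted p = 0.0958). The groups did not overlap in either experiment.

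SRXN1, sulfiredoxin, reactivates peroxiredoxins that have been over-oxidized. It had 2975, 2917 and 3263 normalized counts in the PMA controls and 4488, 4217 and 3999 with PMA (1.39-fold, log2 0.47, SE 0.055, limma adjusted p = 1.73e-05), with every treated library above the controls. With ConA the libraries had 3578, 3605 and 3629, all above the controls at 3539, 3479 and 3307, but the difference did not pass the test (log2 0.07, 95% CI -0.04 to 0.18, adjusted p = 0.268) except with equal totals (0.13, adjusted p = 0.0377). The thioredoxin gene changed much as SRXN1 did, and TXNIP did not. The peroxiredoxin genes, which went different ways, are counted with the pathway lists below. Thioredoxin itself, TXN, rose with PMA from a mean of 4296 to 5942 (log2 0.47, adjusted p = 1.85e-05) and had 5588 and 5435 without and with ConA (log2 -0.04, adjusted p = 0.576). TXNIP, which binds and inhibits thioredoxin, fell with PMA from a mean of 7955 to 1365 (log2 -2.54, adjusted p = 2.10e-12) and rose with ConA from 4778 to 8380.3 (log2 0.81, adjusted p = 1.36e-08).

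NQO1, which reduces quinones to hydroquinones by a 2-electron step, moved little with PMA. The controls had 3867, 3717 and 3600.1 normalized counts and the treated libraries 4116, 4333 and 4197 (1.13-fold, log2 0.18, SE 0.041, limma adjusted p = 0.00295). That rise was not past the threshold under quantile normalization (0.04, adjusted p = 0.402) or with equal totals (0.06, adjusted p = 0.235). With ConA NQO1 fell from 8031, 8518 and 7818 to 6392, 6368 and 5867 (0.76-fold, log2 -0.39, SE 0.055, adjusted p = 2.70e-05), without overlap.

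NFE2L2, the gene of NRF2 itself, did not pass the test with either treatment. The PMA controls had 4875, 4772 and 5058 normalized counts and the treated libraries 4939.7, 5299 and 5083 (log2 0.06, 95% CI -0.03 to 0.15, limma adjusted p = 0.231). The ConA controls had 5004, 4796 and 4749 and the treated libraries 4715, 5275 and 5038 (log2 0.05, 95% CI -0.07 to 0.16, adjusted p = 0.488). Treated and control libraries overlapped in both experiments, and neither interval reached beyond 0.16 (log2).

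KEAP1, the adaptor that holds NRF2 for ubiquitination, moved in opposite directions. It had 3789, 3565 and 3514 normalized counts in the PMA controls and 2908, 2829 and 3042 with PMA, a fall of 0.31 (log2, SE 0.045, limma adjusted p = 1.09e-04). In the ConA experiment it rose from 4021, 4387 and 4394 to 5543, 5142 and 5533 (log2 0.34, SE 0.056, adjusted p = 9.97e-05). Neither pair of groups overlapped.

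**Figure D2:**
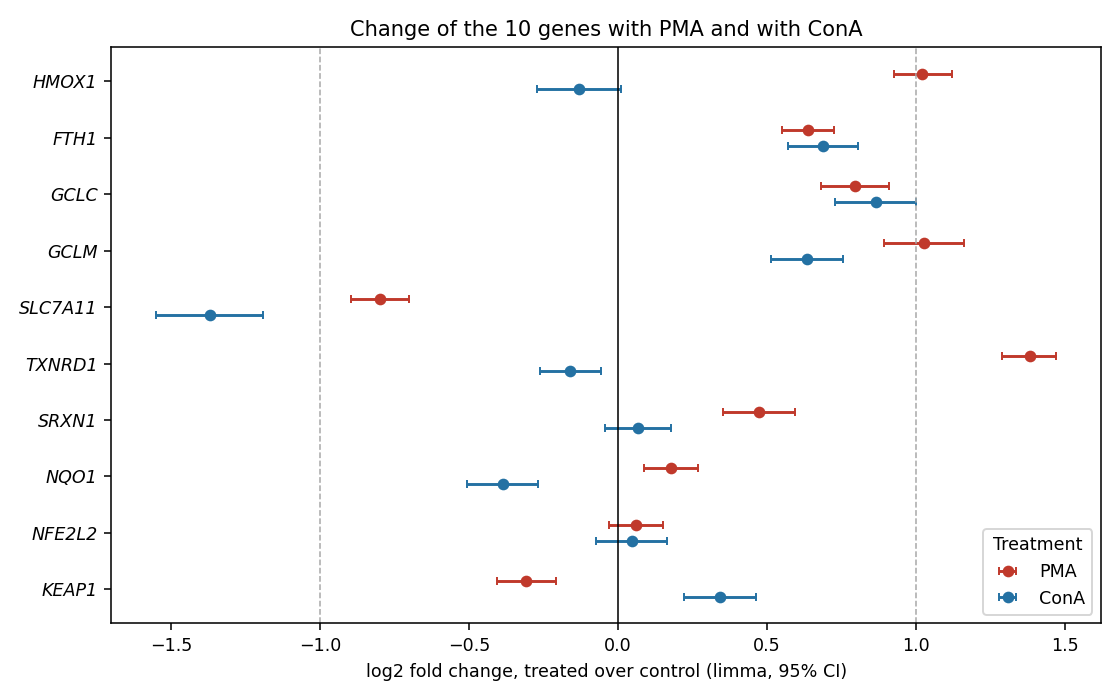
Log2 fold change (horizontal axis) of each of the 10 genes with PMA (red) and ConA (blue), as limma estimates with 95% confidence intervals from 3 treated and 3 control libraries each; dashed lines mark 2-fold. The intervals of GCLC, FTH1 and NFE2L2 overlap between the treatments, and those of HMOX1 (1.02 and -0.13) and TXNRD1 (1.38 and -0.16) lie far apart.

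The change with PMA was set against the change with ConA in a limma fit of all 12 libraries over 15030 genes. The difference passed an adjusted p of 0.05 for 7 of the 10 genes, 6 with a more positive change under PMA and 1 with a more negative change, against 61.1% of all genes (30.4% and 30.7%). By the stricter rule 2 differed, both with a more positive change under PMA, against 10.6% of all genes (3.67% more positive, 6.89% more negative). The largest differences were those of TXNRD1 (log2 1.54, SE 0.058, adjusted p = 3.50e-13) and HMOX1 (log2 1.15, SE 0.077, adjusted p = 9.34e-10). HMOX1 came to 0.96 with equal totals, below 2-fold. KEAP1 was the gene with the more negative change under PMA (log2 -0.65, SE 0.072, adjusted p = 6.05e-07). SLC7A11 differed by 0.57 (adjusted p = 1.49e-04), since it fell less with PMA, and NQO1 by 0.57 (adjusted p = 1.78e-06).

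The other 5 genes gave smaller values. SRXN1 differed by 0.41 (log2, limma adjusted p = 1.53e-04) and GCLM by 0.39 (adjusted p = 6.77e-04), the latter not past the threshold with equal totals (0.20, adjusted p = 0.0548). GCLC did not pass (log2 -0.07, 95% CI -0.24 to 0.09, adjusted p = 0.448), nor did NFE2L2 (0.01, 95% CI -0.13 to 0.16, adjusted p = 0.876) or FTH1 (-0.05, 95% CI -0.18 to 0.08, adjusted p = 0.523). With equal totals GCLC (-0.26, adjusted p = 0.0114), NFE2L2 (-0.17, adjusted p = 0.045) and FTH1 (-0.24, adjusted p = 0.00194) passed, so whether those 3 differ depended on the scaling. FTH1 also passed under quantile normalization (-0.46, adjusted p = 7.88e-06).

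**Figure D3:**
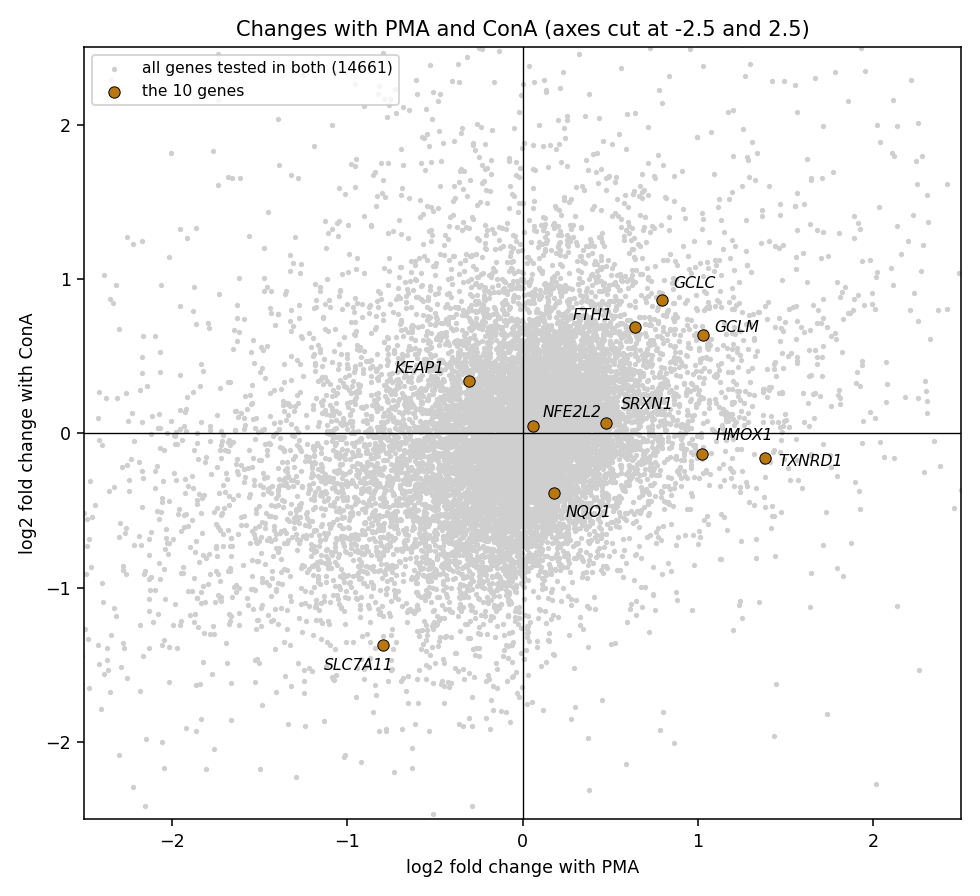
Log2 fold change with PMA (horizontal axis) against that with ConA (vertical axis) for the 14661 genes tested in both experiments (grey) and the 10 genes (brown, named), with axes ending at -2.5 and 2.5. GCLC, GCLM and FTH1 lie in the upper right, SLC7A11 in the lower left, HMOX1 and TXNRD1 to the right and just below the line of no change with ConA, and KEAP1 in the upper left.

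Of all 14661 genes tested in both experiments, 15.3% were higher with both treatments, 14.9% lower with both, 7.05% higher with PMA and lower with ConA, and 6.75% the reverse. Among the 10, GCLC, GCLM and FTH1 were higher with both and SLC7A11 lower with both. NQO1 and TXNRD1 were higher with PMA and lower with ConA, and KEAP1 was the reverse. These are counts of few genes, read as a description.

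Other genes of the NRF2 network were counted in lists of pathway genes, 108 genes beyond the 10. With PMA 35 of the 95 tested rose and 35 fell, with a median log2 change of -0.01, and with ConA 36 of 97 rose and 31 fell, with a median of 0.03. The shares that changed, 73.7% and 69.1%, stand beside 63.3% and 65.3% of all genes. The pooled lists thus had about as many members up as down with each treatment, and their median was near that of all genes. They mix targets of NRF2 with its regulators and with inhibitors, so this balance does not describe the targets alone.

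In the glutathione list 7 of 15 tested genes rose and 4 fell with PMA, and 5 rose and 5 fell with ConA. Of all genes, 32.8% were higher and 30.5% lower with PMA, and 32.8% higher and 32.5% lower with ConA. GSTO1, a glutathione transferase of the omega class, rose with PMA from a mean of 5181 to 13788 normalized counts (log2 1.41, limma adjusted p = 1.88e-09) and had a log2 value of 0.11 with ConA (adjusted p = 0.111). ABCC3, an exporter of conjugates, fell with PMA (log2 -0.77, adjusted p = 7.13e-07) and rose with ConA (log2 0.63, adjusted p = 2.66e-06). Of the 10 thioredoxin and peroxiredoxin genes, 5 rose and 4 fell with PMA, and 3 rose and 5 fell with ConA, beside the same shares. TXN2, the mitochondrial thioredoxin, fell with both (log2 -0.15, adjusted p = 0.0146, and -0.76, adjusted p = 5.37e-08).

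NADPH, the electron donor of TXNRD1, NQO1 and glutathione reductase, is supplied by enzymes of which 5 of 7 fell with each treatment, beside 30.5% of all genes lower with PMA and 32.5% with ConA. With PMA 1 of the 7 rose, with ConA none did, and the list medians were -0.40 and -0.47 (log2). TKT, the transketolase of the pentose phosphate pathway, fell with both treatments (log2 -0.59, limma adjusted p = 1.73e-07, and -0.87, adjusted p = 1.55e-08). IDH1, the cytosolic isocitrate dehydrogenase, fell from a mean of 5852 to 2066 normalized counts with PMA (0.353-fold, adjusted p = 1.72e-10) and less with ConA (log2 -0.17, adjusted p = 0.0115).

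Of 18 tested genes for heme and iron, 5 rose and 8 fell with PMA, and 4 rose and 4 fell with ConA. Of all genes, 32.8% were higher and 30.5% lower with PMA, and 32.8% higher and 32.5% lower with ConA. SLC40A1, the iron exporter ferroportin, fell with PMA from a mean of 69.4 to 24.3 normalized counts (log2 -1.48, limma adjusted p = 3.53e-05) and rose with ConA from 90.0 to 131 (log2 0.54, adjusted p = 0.00341). LRP1, a receptor that takes up heme bound to hemopexin, fell with PMA (log2 -1.20, adjusted p = 1.11e-09) and with ConA (log2 -0.27, adjusted p = 0.0218). Among 11 tested detoxification enzymes 4 rose and 4 fell with PMA, and 4 rose and 2 fell with ConA, beside the same shares. AKR1B1, an aldose reductase, rose with both (log2 1.03 and 1.39, adjusted p = 9.96e-09 and 4.72e-11), and its close relative AKR1B10 fell with both, from means of 80.7 to 19.8 and 164 to 41.5 (log2 -2.06 and -2.00, adjusted p = 6.46e-05 and 1.27e-06). Reads shared between aldo-keto reductase genes could be split between them.

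Of the further NRF2 targets, 5 of 11 rose and 5 fell with PMA (median log2 -0.32), beside 32.8% of all genes higher and 30.5% lower. With ConA 8 of 12 rose and 2 fell (median 0.45), beside 32.8% of all genes higher and 32.5% lower. SPP1, osteopontin, rose with PMA from a mean of 390 to 1276 normalized counts (log2 1.71, limma adjusted p = 5.42e-09) and fell with ConA from 619 to 375 (log2 -0.72, adjusted p = 8.06e-06). PIR, an iron-binding nuclear protein, fell with both (log2 -0.89, adjusted p = 1.36e-05, and -0.21, adjusted p = 0.0199). In the list of NRF2 control and partner genes 8 of 23 rose and 5 fell with PMA, and 12 of 24 rose and 8 fell with ConA. NFE2L3, which encodes an NRF2-related factor, rose from a mean of 5406 to 20062 with ConA (log2 1.89, adjusted p = 7.13e-13) and fell from 4310 to 3287 with PMA (log2 -0.39, adjusted p = 6.96e-05). SESN3, a sestrin, fell with both (log2 -2.52, adjusted p = 8.32e-09, and -1.44, adjusted p = 1.71e-10).

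Antioxidant enzymes outside the NRF2 lists were split, 4 of 10 up and 4 down with PMA, and 2 of 11 up and 3 down with ConA. Of all genes, 32.8% were higher and 30.5% lower with PMA, and 32.8% higher and 32.5% lower with ConA. SOD2, the mitochondrial superoxide dismutase, rose from a mean of 6572 to 32820.4 normalized counts with PMA (log2 2.32, limma adjusted p = 1.35e-12) and from 3756 to 88898 with ConA (log2 4.56, adjusted p = 7.79e-17). CAT, catalase, fell by more than 2-fold with both (log2 -1.18, adjusted p = 3.72e-09, and -1.10, adjusted p = 1.23e-09). Of the genes for NADPH oxidases and other superoxide sources 2 of 6 tested rose and 3 fell with PMA. With ConA 2 of 7 rose and 3 fell, beside the same shares. DUOX2, a dual oxidase, rose from a mean of 10.3 to 169 with ConA (log2 3.91, adjusted p = 7.02e-10) and was too low to test with PMA (means of 11.8 and 1.19). NOXA1, an oxidase activator, fell with both, from means of 27.2 and 26.1 in the controls (log2 -2.13, adjusted p = 0.0014, and -1.01, adjusted p = 0.0098).

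The ATF4 amino acid response shares SLC7A11 as a target with NRF2, and here the treatments differed. With ConA 16 of 18 genes of the list fell and 2 rose, with a median of -0.82 (log2), and 7 of the 16 fell by the stricter rule, beside 32.5% of all genes lower with ConA and 2.88% lower by the stricter rule. With PMA 8 rose and 6 fell, with a median of 0.09, and the difference between the treatments was past the threshold with a more positive change under PMA for 17 of 18, beside 30.4% of all genes. CHAC1, which degrades glutathione, fell with ConA from a mean of 2341 to 677 normalized counts (log2 -1.80, limma adjusted p = 1.64e-09) and had means of 2304 and 2156 without and with PMA (log2 -0.10, adjusted p = 0.0661). DDIT4, an inhibitor of mTORC1 signalling, fell with both (log2 -0.41, adjusted p = 1.06e-05, and -1.62, adjusted p = 2.72e-09). Metallothionein and heat shock genes, other responders to metals and damaged protein, rose in 6 of 11 cases and fell in 2 with PMA. With ConA 6 of 10 rose and 3 fell. Beside the counts of both lists, 32.8% of all genes were higher and 30.5% lower with PMA, and 32.8% higher and 32.5% lower with ConA. HSPA1A, an inducible HSP70, rose with both (log2 2.23, adjusted p = 4.01e-12, and 0.91, adjusted p = 8.69e-09), though its reads could be shared with the near-identical HSPA1B, and so did MT2A, a metallothionein (log2 1.56, adjusted p = 1.19e-10, and 0.82, adjusted p = 2.49e-08).

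**Figure D4:**
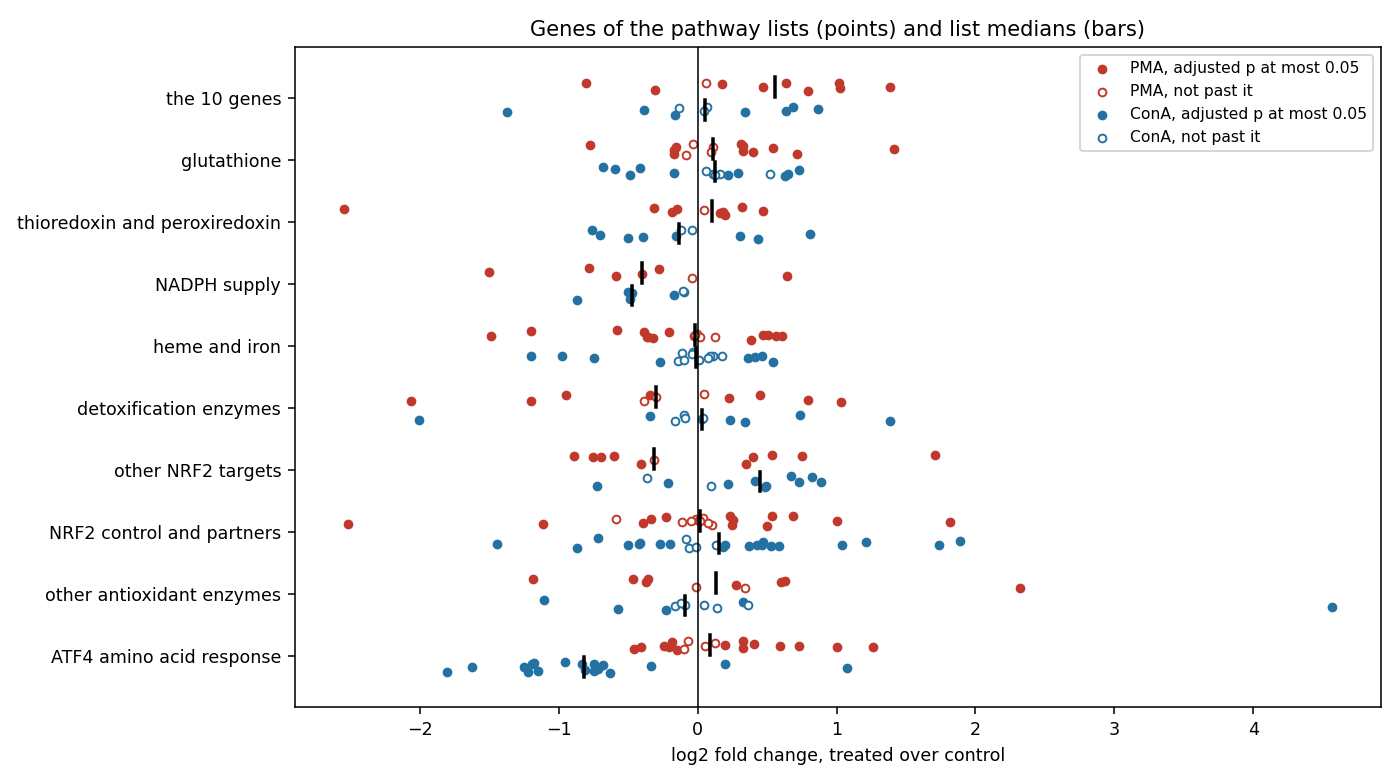
Log2 fold change (horizontal axis) of each tested gene of the pathway lists, with PMA in red and ConA in blue, filled where the adjusted p was at most 0.05, and a black bar at each list's median. The medians of the ATF4 list are 0.09 with PMA and -0.82 with ConA, and those of the NADPH supply list lie left of 0 with both treatments.

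Ratios between functional partners were taken within each library, which cancels library scaling. The 7 pairs were chosen after the values had been seen, and gene lengths differ, so only the change of a ratio is read. The exact 2-sided permutation test of 3 against 3 libraries cannot go below p = 0.1, and over 14 tests that becomes 0.117 after Benjamini-Hochberg adjustment. The ratio of GCLM to GCLC went from 1.94 ± 0.148 (SD, n = 3) to 2.27 ± 0.0253 with PMA and from 3.11 ± 0.0702 to 2.65 ± 0.0235 with ConA, without overlap (exact permutation p = 0.1 each). KEAP1 to NFE2L2 was 0.740 ± 0.0417 and 0.574 ± 0.0349 without and with PMA, and 0.881 ± 0.0673 and 1.08 ± 0.101 without and with ConA (exact permutation p = 0.1 each). For both ratios the libraries of the 2 treatments lay on opposite sides of their own controls.

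SLC7A11 to SLC3A2 was lower with both treatments, at 0.253 ± 0.0178 and 0.115 ± 0.0033 (SD, n = 3) without and with PMA and 0.283 ± 0.0335 and 0.177 ± 0.0298 without and with ConA (exact permutation p = 0.1 each). The FTH1 to FTL ratio was higher with both, at 0.906 ± 0.0411 and 1.43 ± 0.0826 for PMA and 0.732 ± 0.0221 and 1.98 ± 0.14 for ConA (exact permutation p = 0.1 each). BACH1 to NFE2L2 was also higher with both, at 0.743 and 1.05 for PMA and 0.538 and 0.693 for ConA (exact permutation p = 0.1 each). HMOX1 to HMOX2 and TXNRD1 to TXN parted from their controls with PMA and overlapped with them with ConA, a contrast that was not itself tested. HMOX1 to HMOX2 was 1.15 and 1.79 without and with PMA (exact permutation p = 0.1), and 0.527 and 0.530 without and with ConA (p = 0.9). TXNRD1 to TXN was 4.09 and 7.69 for PMA (exact permutation p = 0.1) and 2.60 and 2.40 for ConA (p = 0.3).

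**Figure D5:**
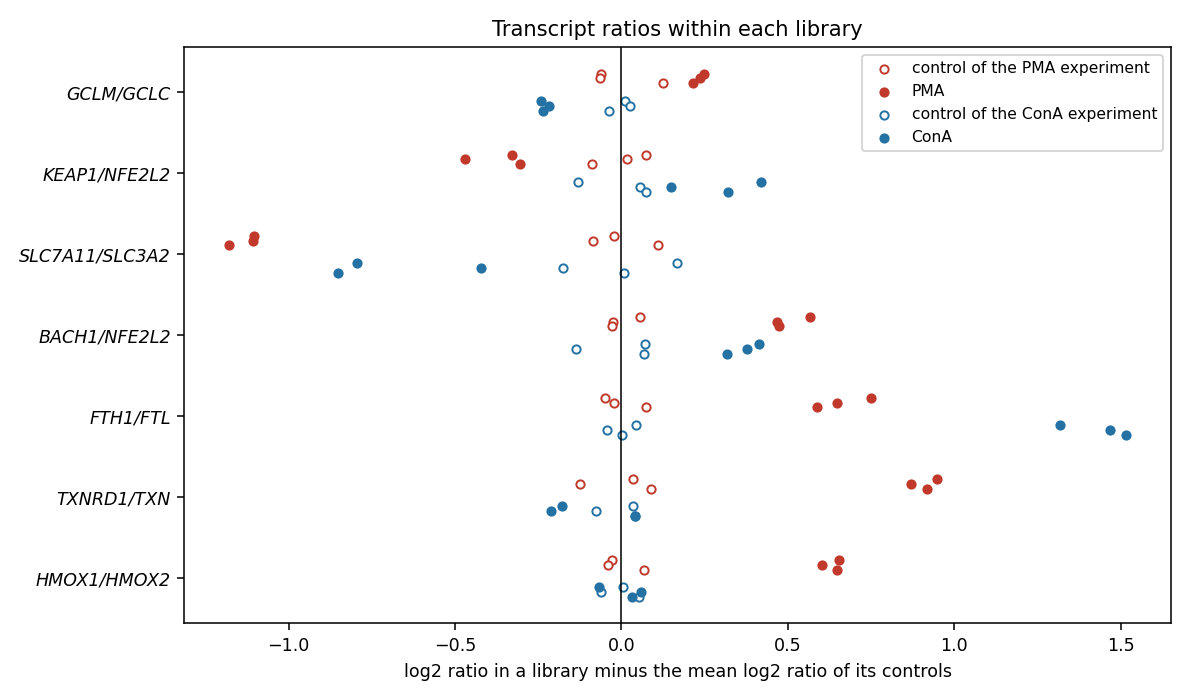
Ratio of 2 transcripts in each library, as log2 minus the mean log2 ratio of the controls of its own experiment (horizontal axis), for 7 pairs, with controls as open and treated libraries as filled points, PMA experiment in red and ConA experiment in blue. GCLM/GCLC and KEAP1/NFE2L2 part in opposite directions, and HMOX1/HMOX2 and TXNRD1/TXN overlap with their controls with ConA.

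Levels of different genes were compared only per length, as normalized counts per kilobase of the union of exons in GENCODE release 29. In the PMA controls FTH1 was highest at 42330 ± 334 per kilobase (SD, n = 3), followed by TXNRD1 at 3473 ± 140. NQO1 (1193 ± 42.8), KEAP1 (1148 ± 46.2), SRXN1 (1131 ± 68.7), HMOX1 (1111 ± 25.3) and NFE2L2 (1082 ± 32) came next, and neighbours among these 5 overlapped in range. SLC7A11 (395 ± 18.6), GCLM (327 ± 24.7) and GCLC (130 ± 1.36) were lowest and did not overlap. With PMA, HMOX1 reached 2257 ± 97.1 per kilobase, the level of rank 3 of the 10, from rank 6 in the controls. In the ConA experiment it had rank 7 in the controls (736 ± 52.1) and rank 8 with ConA (671 ± 10.6), where GCLM, at 764 ± 31.1, stood above it. The order depended on the length used. Divided by the median transcript length instead, HMOX1 had rank 7 and rank 4 without and with PMA, and in the PMA controls NFE2L2 had rank 4 in place of 7 and GCLM (408 per kilobase) stood above SLC7A11 (395).

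NQO1 differed between the control groups, at 1193 per kilobase in the PMA experiment and 2600 ± 115 in the ConA experiment, and HMOX1 at 1111 and 736. The tables were normalized apart, so these 2 differences between control groups were not tested.

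Among the genes whose pattern was most like that of HMOX1 were NMNAT2 (Pearson r = 0.9949) and PPP1R15A (0.9946), over the 12 libraries as log2 values minus the mean of the own controls, out of 14660 genes. NMNAT2 is an enzyme of NAD synthesis, and PPP1R15A directs dephosphorylation of eIF2alpha. Their log2 fold changes were 1.90 and 1.75 with PMA and -0.32 and -0.14 with ConA. Within the 10, HMOX1 went most closely with TXNRD1 (r = 0.992) and SRXN1 (0.910), and GCLC with FTH1 (0.990), while SLC7A11 ran against FTH1 (-0.943) and GCLC (-0.937). The 12 points fall into 4 groups that share treatment and table, so each r mostly describes the group means and is given with no test.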

How the data were processed

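RNA from HT1080 cells was measured by poly(A) RNA sequencing in 12 libraries, in the 4 groups that the labels give. The authors deposited signal values, which are normalized counts for each gene symbol: estimates where reads are shared, divided by 1 factor per library, in 2 tables normalized apart. The submitters' processing notes name Partek, Bowtie2, STAR, DESeq2 and the builds hg19 and mm10, with no roles. Of values between 5 and 60, 80.2% to 82.5% were whole reads within 0.02, so reads were not recovered and no count test was run. Depth is given as estimated reads, and the spread between libraries sets the precision.

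Each treatment was compared with the controls of its own table with limma 3.58.1 in R 4.3.3 (lmFit, eBayes with trend) on log2(value + 1), for genes with a mean of at least 10, with Benjamini-Hochberg adjustment over all genes. The stricter rule used the thresholds drawn on the study's volcano plots. The difference was fitted to 12 libraries with 4 group means. The 10 genes and the lists (glutathione, thioredoxin, NADPH supply, heme and iron, detoxification, further targets, control and partners, other antioxidant enzymes, ATF4, metallothionein and heat shock, NADPH oxidases, cell type markers) were chosen with earlier results of these data known. Beyond the 10, the text names, from each list, the 2 genes past 0.05 that changed most, direct partners (SLC3A2, HMOX2, FTL, BACH1, TXN) and genes of the 3 most like HMOX1, of which 1 is not reported here. After the group means were removed, same-numbered PMA and control libraries correlated at -0.0636, 0.0964 and 0.0964. Differently numbered ones correlated at -0.176 to 0.106. The numbers were not taken as pairs, though this check cannot exclude pairing. The fit was tested on simulated data. Alternatives covered the pseudocount, the filter, scaling, the variance trend, 1 fit of all libraries, the replicate block and leaving out each library. Promoter coordinates are on GRCh38.p14 and exon lengths from GENCODE 29, and neither was joined to coordinates of the deposited tables, which hold none. Python 3.11.15, numpy 2.4.6, pandas 2.3.3, scipy 1.17.1 and matplotlib 3.10.9 were used.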

Additional observations from a re-analysis of the deposited data

Results flagged for a closer look

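For 3 of the 10 genes every PMA library lay on one side of its controls, every ConA library on the other side of its own, and the difference between the changes passed the test in limma over all genes. The share of all genes that meet this whole rule was not counted. At an adjusted p of at most 0.05 in each experiment, 7.05% of all genes were higher with PMA and lower with ConA. The reverse held for 6.75%. The test on the difference was part of the rule that picked these genes, so it adds no further support. TXNRD1 rose with PMA and fell with ConA, a difference of 1.54 (log2, adjusted p = 3.50e-13). NQO1 did likewise, with a difference of 0.57 (log2 0.5651, adjusted p = 1.78e-06), although its rise with PMA was not past the threshold under 2 of the scalings. KEAP1 fell with PMA and rose with ConA, a difference of -0.65 (log2, adjusted p = 6.05e-07). The treatments were run as separate experiments, so treatment and experiment cannot be told apart in these differences.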

How the results depend on the processing

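Over all alternatives, 198 counts kept within 1.5 times their main value and 6 did not. Of the values of named genes 1802 kept direction and side of the threshold, 26 newly passed it, 19 no longer passed it and 19 changed sign. Genes 2-fold higher with PMA numbered 1 (TXNRD1) in place of 3 under quantile normalization and 1 with equal library totals, a scaling added after the data were seen. Without the variance trend 0 were 2-fold lower with ConA. Differences with a more negative change under PMA numbered 2 under quantile normalization and 4 with equal totals. With equal totals 1 difference was left at 2-fold, that of TXNRD1, with a more positive change under PMA. The cause was not tested.

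Values that changed sign were not past the threshold unless stated. For NFE2L2 they were -0.094 (quantile) and -0.062 (equal totals) with PMA, -0.017 (median centring) with ConA, and for the difference -0.117 (quantile), -0.174 (equal totals, adjusted p = 0.045) and -0.029 to 0.052 without 1 library. TXN with ConA was 0.023 with equal totals and -0.081 to 0.032 without 1 library (above 0 without ConA replicate 3), and FTL with PMA -0.058 to 0.020 (above 0 without PMA replicate 1). For the difference, FTH1 was 0.0015 (median centring), BACH1 -0.041 (equal totals), and AKR1B10 0.14 (pseudocount 10), 0.27 (quantile) and -0.36 to 0.26 without 1 library.

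With the replicate number as a block, 7 of the 10 genes rose and 2 fell with PMA, 3 of them 2-fold, as without it, and 9545 genes in all changed. The labels do not say whether equal numbers pair the libraries. No paired analysis was possible for ConA and for the difference because the ConA groups share no number. Leaving out 1 library kept every count of the 10 genes within 1.5 times.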
